A study of Homo sapiens with 18 samples.

Results

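The genes described here are 10 members of the NF-kB pathway in C4-2B cells treated with VIC-1911, olaparib or both drugs. They are the canonical subunits NFKB1, RELA and REL, the non-canonical subunits NFKB2 and RELB, the inhibitors NFKBIA and NFKBIE, and the target genes LIF, IL32 and TNFAIP3. They were found by symbol, and each was present as 1 of 22136 genes in the count table of 2 days, as 1 of 21276 genes in that of 7 days and as 1 of 26475 genes in each FPKM table. The rule for finding them used symbols and no measured value.

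C4-2B is an established human prostate cancer cell line, VIC-1911 inhibits the mitotic kinase AURKA, and olaparib inhibits the DNA repair enzyme PARP. Wild-type C4-2B cells were kept for 2 days with DMSO as vehicle or with VIC-1911 at 0.1 μM. Others were kept for 7 days with DMSO, with VIC-1911 at 0.1 μM, with olaparib at 1 μM, or with both drugs at these doses. Each of these 6 groups had 3 poly(A) RNA-seq libraries, 18 in all, and the study asked how each drug and their combination changed gene expression. The labels do not state whether the 3 libraries of a group came from separate cultures, so p-values measure the spread between these libraries, which may be technical.

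NF-kB transcription factors are dimers of 5 related subunits. In the canonical route, receptors for TNF, IL-1 and bacterial products activate the IKK complex, which marks the IkB proteins for destruction and frees dimers such as p50 (cut from the NFKB1 product) with RELA, or dimers that hold REL. In the non-canonical route, a smaller group of receptors stabilises the kinase NIK (MAP3K14), which triggers the cutting of the NFKB2 product p100 to p52, the partner of RELB. NFKB2, RELB, NFKBIA and TNFAIP3 are themselves known targets of the pathway, so that their mRNA is often read as its output, whereas mRNA of a subunit says nothing of its cutting or its place in the cell. In prostate epithelium and its tumours the pathway is known for links to inflammation and survival.

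Dimers of the family bind short, G-rich and C-rich DNA stretches called kappa-B sites. Sequences up to 250 bases before annotated transcript starts, here called promoters, were taken from RefSeq (GRCh38.p14) and searched on both strands for the kappa-B consensus, with overlapping matches joined. Of the 10 genes, 7 had entries, with 12 promoters in all, and 6 of the 7 genes had a match in at least 1 promoter. A match was found in 7 of the 12 promoters, against 5.21% of all 35116 promoters in the table. RELB, LIF and NFKBIE had no entry. The stretches with matches are shown since NF-kB is known to act on several of its own genes through such sites; capitals mark the match, strand is that of the gene, and the window is short where an annotated transcript overlaps it.
NFKB1, chr4:102501300-102501329, plus strand: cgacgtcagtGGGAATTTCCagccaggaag
REL, chr2:60881517-60881546, plus strand: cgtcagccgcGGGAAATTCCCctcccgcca
NFKB2 (promoter 2), chr10:102394461-102394490, plus strand: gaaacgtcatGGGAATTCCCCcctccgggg
NFKB2 (promoter 3), chr10:102395519-102395548, plus strand: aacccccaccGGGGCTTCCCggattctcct
NFKBIA, chr14:35404750-35404879, minus strand: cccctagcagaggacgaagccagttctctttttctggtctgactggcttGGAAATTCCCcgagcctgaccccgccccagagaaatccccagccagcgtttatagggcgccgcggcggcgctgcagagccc
IL32, chr16:3065294-3065323, plus strand: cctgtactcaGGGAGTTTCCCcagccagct
TNFAIP3, chr6:137867188-137867217, plus strand: ctttGGAAAGTCCCgtGGAAATCCCCgggc

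The match lay 49 bases before the start of NFKB1, 81 bases before that of NFKBIA, and 99 bases before that of IL32 at its first base. The promoter listed for TNFAIP3 precedes an alternative start inside the gene, and had 2 separate matches, the nearer one 55 bases before that start. NFKB2 had matches in 2 of its 3 promoters, both before alternative starts inside the gene and none before its first start, and each of them holds 1 further match outside the stretch shown, and RELA had none in either of its 2. The match in REL began 47 bases before its start. A match is a description of these letters, and no binding was measured.

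Depth and identity of the libraries bear on all the values. Between 3245273 and 7184420 reads per library were counted on genes after 2 days and between 4967931 (olaparib replicate 1) and 19684208 after 7 days. At 2 days every vehicle library (3245273 to 4545256 counts) was shallower than every VIC-1911 library (5107326 to 7184420). All 6 prostate luminal markers (KLK3 and others) reached 1 FPKM in every group, and their summed level after 7 days was 4028 to 4103 FPKM in vehicle and 2333 to 2812 FPKM in the treated libraries. Of 9 leukocyte markers only CD68 reached 1 FPKM in any group, and CD2 and CD3E were at 0 in all groups. The summed level of the list after 7 days was 6.53 to 7.55 FPKM in vehicle, 7.83 to 7.98 FPKM after VIC-1911 and 8.59 to 10.7 FPKM in the libraries with olaparib. Nearly all of this sum was CD68, with 6.11 to 10.1 FPKM over the libraries of 7 days. Of 8 markers of stroma and endothelium only COL1A1 reached 1 FPKM. The part of these lists in the results was not tested, and in bulk RNA fewer cells of a type and less RNA per cell cannot be told apart. The vehicle and VIC-1911 libraries of 7 days carry one unbroken run of library names and the olaparib and combination libraries another, so any effect of that split cannot be told apart from olaparib in comparisons across the runs, while VIC-1911 against vehicle and combination against olaparib stand within a run.

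Levels are given as FPKM, the fragments per length of gene and depth of library, which can be set side by side between genes. The FPKM tables of 2 and 7 days were normalized separately, so levels are compared only within a time point. Changes are log2 fold changes of the counts with their standard errors (SE), and a gene was called higher or lower where the Benjamini-Hochberg adjusted p of edgeR's quasi-likelihood test, adjusted over all genes tested, was under 0.05. Exons of RELA, LIF, IL32 and TNFAIP3 share between 1.47% and 4.02% of their bases with another annotated gene, so these counts are uncertain by such overlap. All 10 genes passed the filter of at least 10 counts in at least 3 libraries. RELB and IL32 passed it at 2 days only through the VIC-1911 libraries. At 7 days no vehicle library of IL32 and only 1 each of RELB and TNFAIP3 reached 10 counts, so these passed through treated libraries, and these genes could be tested only because they were high there. Counts over the 10 genes are no support for a direction.

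After 7 days NFKB2, RELB, LIF and IL32 rose in all 3 treatments, NFKB1 rose in all 3 to overlapping levels, RELA rose slightly in the olaparib and combination groups, and REL was not called in any comparison. Of the 10 genes, 5 were called higher after VIC-1911, 8 after olaparib and 9 after the combination, and none lower, also at an unadjusted p under 0.05 and with DESeq2 or limma. Of all 14409 genes tested, 26.7%, 28.1% and 28.6% were called higher in the same comparisons, and 52.4%, 54% and 56.6% in either direction. The median log2 fold change of the 10 genes was 0.43, 0.73 and 1.02, against -0.0052, 0.01 and 0.0046 over all genes tested. At the study's limit of 2-fold for 7 days, 3, 4 and 5 of the 10 genes were called higher, with 3.46%, 3.63% and 4.55% of all genes tested. They were RELB, LIF and IL32 after VIC-1911, joined by TNFAIP3 after olaparib and by TNFAIP3 and NFKB2 after both. RELB, IL32 and TNFAIP3 had passed the count filter through treated libraries. The numbers called and the medians, which include these genes, are therefore no measure of an excess over all genes. The FPKM of all treated libraries lay above all vehicle libraries for 6, 9 and 8 of the 10 genes, and for 33.9%, 31.9% and 30.1% of all genes tested. These 3 comparisons share the same 3 vehicle libraries. After 2 days 3 of the 10 genes were higher and none lower, where 7.5% of 12241 genes were called higher and 14.7% in either direction. Their median was 0.16 against -0.0034 over all genes tested, and 2 of them passed the 1.5-fold limit that the study used at that time, as did 0.825% of all genes in that direction. The FPKM of 3 of the 10 genes did not overlap between the groups at 2 days and were higher with VIC-1911, as for 14.5% of all genes tested. RELB and IL32 had passed the count filter at 2 days only through the VIC-1911 libraries. The 2-day numbers and median, which include these genes, are therefore also no measure of an excess over all genes.

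**Figure D1:**
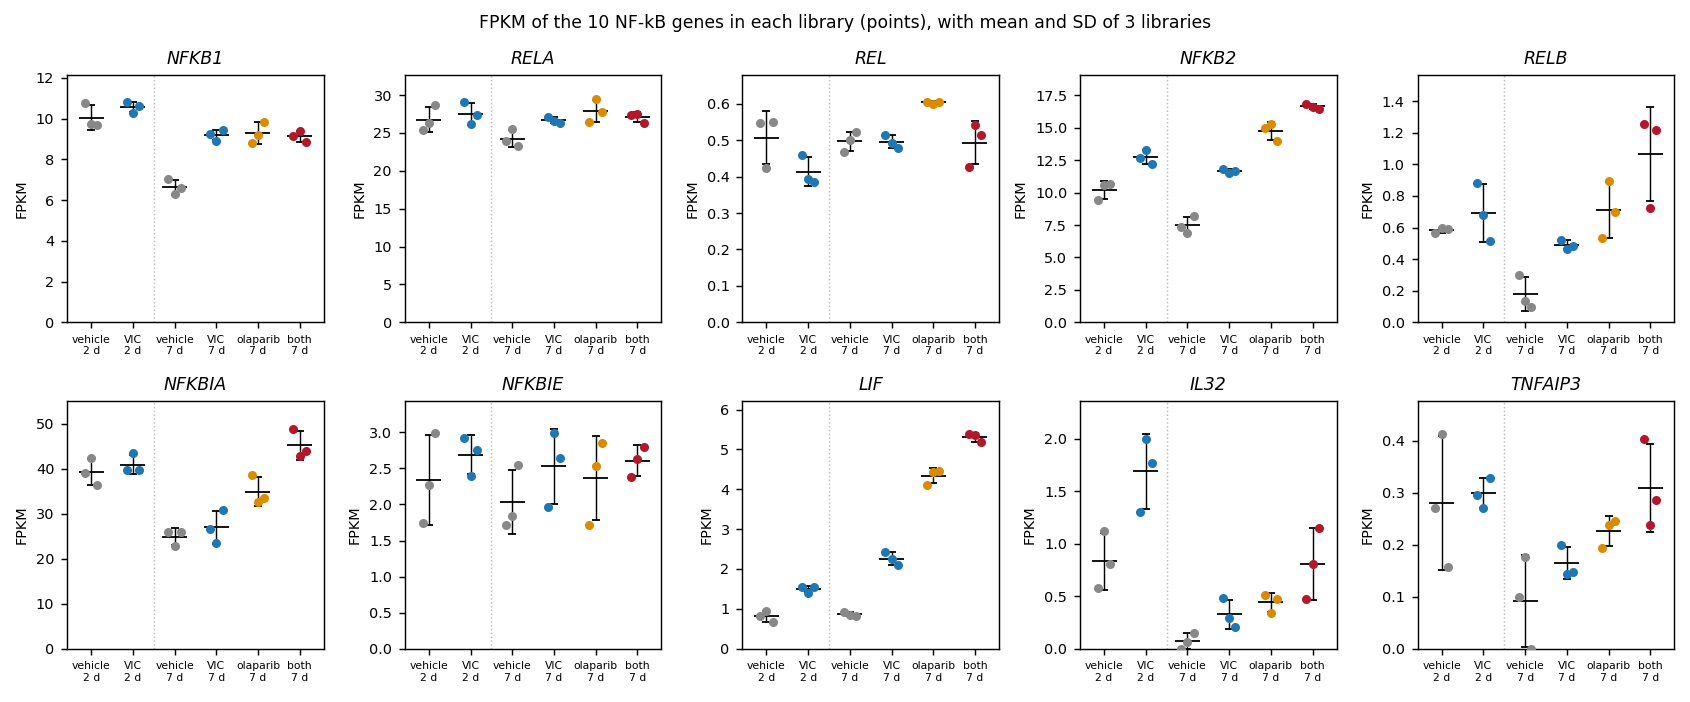
FPKM of each of the 10 genes (y axis from 0, own scale per gene) in each library, by group (x axis); points are libraries, the horizontal bar is the mean and the error bar the SD of 3 libraries, and a dotted line parts the separately normalized tables of 2 and 7 days. LIF and NFKB2 step up from vehicle to VIC-1911, olaparib and both at 7 days with no overlap between groups, while REL stays between 0.427 and 0.606 FPKM in the 12 libraries of 7 days.

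NFKB1 (chr4:102501359-102617302 in GRCh38), the canonical p105 and p50 precursor, had FPKM of 7.03, 6.28 and 6.58 in the 7-day vehicle libraries, 9.23, 8.91 and 9.44 after VIC-1911, 8.78, 9.20 and 9.85 after olaparib, and 9.14, 9.42 and 8.86 after both. Every treated library was above every vehicle library, and the 3 treated groups overlapped each other. The log2 fold change was 0.43 ± 0.066 (adjusted p = 2.37e-06) after VIC-1911, 0.48 ± 0.066 (adjusted p = 3.3e-07) after olaparib and 0.46 ± 0.064 (adjusted p = 5.06e-07) after both. After 2 days the vehicle libraries had 10.8, 9.73 and 9.68 FPKM and the VIC-1911 libraries 10.8, 10.3 and 10.6, and the difference did not pass the test (log2 fold change 0.11 ± 0.076, adjusted p = 0.373).

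RELA (chr11:65653601-65663857, minus strand), whose product carries the main activation domain of canonical dimers, was the most abundant of the subunits. It had 24.0, 25.5 and 23.3 FPKM in vehicle at 7 days, 27.1, 26.6 and 26.4 after VIC-1911, 26.5, 29.4 and 27.8 after olaparib, and 27.4, 27.5 and 26.3 after both. All treated libraries lay above all vehicle libraries, by at most 1.14-fold in the fitted means. The test was passed after olaparib (0.19 ± 0.053, adjusted p = 0.00369) and after both drugs (0.15 ± 0.052, adjusted p = 0.0159) but not after VIC-1911 (0.09 ± 0.053, adjusted p = 0.177). The call for the combination was lost without vehicle replicate 1 (adjusted p = 0.0933), vehicle replicate 3 (adjusted p = 0.0868) or combination replicate 1 (adjusted p = 0.054), and limma on FPKM called RELA higher after VIC-1911 (adjusted p = 0.0247 with a pseudocount of 0.1). At 2 days its libraries held 25.4 to 28.7 FPKM in vehicle and 26.1 to 29.1 after VIC-1911 (adjusted p = 0.845).

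REL (chr2:60881574-60931612), the subunit best known from lymphocytes, was low in this epithelial line. Its level was 0.468 to 0.521 FPKM in vehicle, 0.48 to 0.515 after VIC-1911, 0.600 to 0.606 after olaparib and 0.427 to 0.54 after both. The olaparib libraries stood above those of the other 3 groups, but the count tests were not passed (olaparib against vehicle 0.27 ± 0.15, adjusted p = 0.129), nor were those of VIC-1911 (-0.04 ± 0.16, adjusted p = 0.841) and of the combination (-0.02 ± 0.15, adjusted p = 0.94). At 2 days the difference was -0.25 ± 0.25 (adjusted p = 0.567). Annotated exons of REL share 33.3% of their bases with a long noncoding RNA on the same strand, so its counts are uncertain.

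NFKB2 (chr10:102394110-102402529), which encodes p100, the precursor of the non-canonical p52, was the only subunit called higher at both time points. After 2 days its libraries had 9.44, 10.6 and 10.6 FPKM in vehicle and 12.7, 13.3 and 12.2 with VIC-1911, with no overlap, and a log2 fold change of 0.31 ± 0.076 (adjusted p = 0.0036). After 7 days it had 7.31, 6.92 and 8.20 FPKM in vehicle, 11.8, 11.5 and 11.6 with VIC-1911, 14.97, 15.3 and 13.96 with olaparib, and 16.9, 16.6 and 16.5 with both drugs. The 4 groups did not overlap, in that order. Against vehicle the changes were 0.62 ± 0.063 (adjusted p = 2.15e-09), 0.98 ± 0.062 (adjusted p = 5.98e-14) and 1.17 ± 0.061 (adjusted p = 3.45e-16), the last a 2.26-fold rise. Across all alternatives its adjusted p against vehicle stayed at or under 0.0313 at 2 days and 2.48e-06 at 7 days.

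RELB (chr19:45001464-45038192), the partner of p52, was low throughout. After 7 days its FPKM was 0.299, 0.136 and 0.0996 in vehicle, 0.521, 0.465 and 0.484 after VIC-1911, 0.537, 0.893 and 0.701 after olaparib, and 1.26, 0.726 and 1.22 after both. Every treated library exceeded every vehicle library. These rest on 22 counts in the 3 vehicle libraries together and on 54, 94 and 146 counts in the treated groups, which gives ratios per total count of 2.51 (95% interval 1.504 to 4.33, counting error only), 4.04 (2.52 to 6.76) and 5.98 (3.80 to 9.83). The fitted changes were 1.30 ± 0.39 (adjusted p = 0.00642), 1.95 ± 0.35 (adjusted p = 3.06e-05) and 2.50 ± 0.33 (adjusted p = 1.46e-07). The call after VIC-1911 was lost without vehicle replicate 2 (0.99, adjusted p = 0.0689). After 2 days RELB had 0.565, 0.595 and 0.588 FPKM in vehicle and 0.885, 0.679 and 0.514 with VIC-1911, which overlapped (0.32 ± 0.37, adjusted p = 0.629).

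In each treatment at 7 days the fitted changes of NFKB2 and RELB were above those of NFKB1, RELA and REL. RELB had passed the count filter at 7 days through treated libraries, so its part in this order is no support for it. NFKB2 did not depend on that filter, with 0.62, 0.98 and 1.17 against 0.43, 0.48 and 0.46 for NFKB1. For each library the mean log2 FPKM of NFKB1, RELA and REL was subtracted from that of NFKB2 and RELB, as a description with no test. The value was -1.98 ± 0.388 (SD, n = 3) in vehicle at 7 days, -1.05 ± 0.0274 after VIC-1911, -0.75 ± 0.166 after olaparib and -0.25 ± 0.286 after both, which puts the treated groups 0.93, 1.23 and 1.73 above vehicle. The vehicle libraries spread from -2.25 to -1.54 and did not reach any treated library. At 2 days it was -1.07 ± 0.140 in vehicle and -0.75 ± 0.168 with VIC-1911, a difference of 0.32, with the lowest VIC-1911 library (-0.94) below the highest vehicle library (-0.92). The canonical mean moved less, with 2.10 ± 0.0045 in vehicle and 2.31 ± 0.065 after both drugs on the log2 scale, against 0.12 ± 0.384 and 2.05 ± 0.224 for the non-canonical mean. The spread of the vehicle value followed RELB, whose 3 vehicle libraries had 13, 7 and 2 counts.

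The better-measured pair of precursors, without RELB, gave the same order of the means but a smaller shift. The mean log2 ratio of NFKB2 to NFKB1 at 7 days was 0.17 in vehicle, 0.34 after VIC-1911, 0.67 after olaparib and 0.87 after both. The ratio of NFKB2 to NFKB1 FPKM was 1.13 ± 0.106 in vehicle, 1.27 ± 0.0304 after VIC-1911, 1.60 ± 0.155 after olaparib and 1.82 ± 0.0509 after both at 7 days. Vehicle and VIC-1911 overlapped in this ratio, and both genes rose after VIC-1911, while vehicle did not overlap the groups with olaparib. At 2 days the ratio was 1.02 ± 0.126 in vehicle and 1.21 ± 0.0751 with VIC-1911. RELB remained a small fraction of RELA in every group: the ratio of their FPKM was 0.00735 ± 0.00445 in vehicle and 0.0395 ± 0.0113 after both drugs at 7 days.

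**Figure D2:**
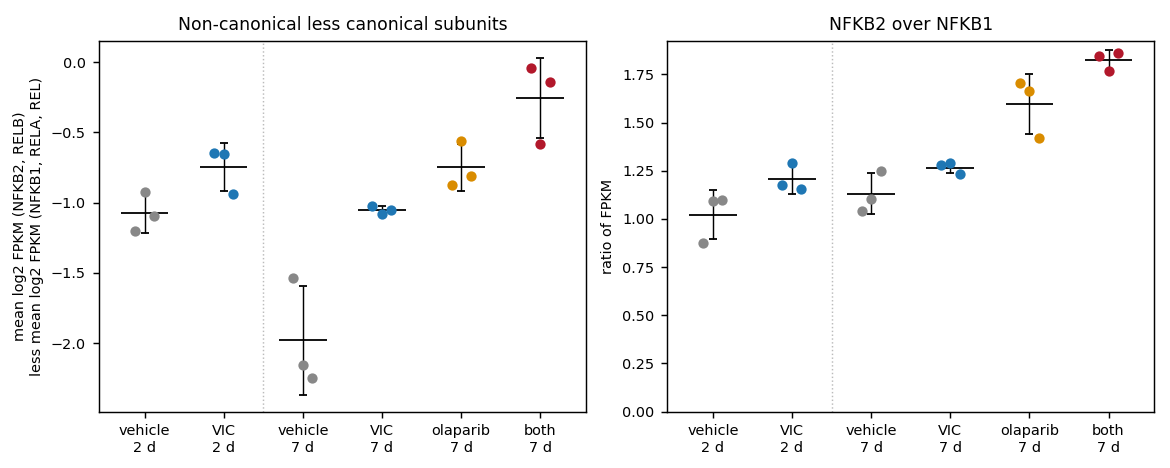
Left, the mean log2 FPKM of NFKB2 and RELB less that of NFKB1, RELA and REL; right, the ratio of NFKB2 to NFKB1 FPKM (y axis from 0); points are libraries, bars the mean and SD of 3 libraries, and the dotted line parts the tables of 2 and 7 days. Both values rise from vehicle to VIC-1911, olaparib and both drugs at 7 days, from -1.98 to -0.25 and from 1.13 to 1.82 in the means.

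NFKBIA (chr14:35401513-35404749, minus strand), which encodes IkB-alpha, the inhibitor that NF-kB itself induces to end its own activity, was the most abundant of the 10 genes by group mean FPKM, though its libraries overlapped those of RELA in 7-day vehicle and VIC-1911. After 7 days it had 25.9, 22.8 and 26.0 FPKM in vehicle, 26.6, 23.4 and 30.7 after VIC-1911, 38.5, 32.7 and 33.5 after olaparib, and 48.8, 42.8 and 43.9 after both. VIC-1911 overlapped vehicle, olaparib lay above both, and the combination lay above all. The changes against vehicle were 0.09 ± 0.082 (adjusted p = 0.396), 0.45 ± 0.080 (adjusted p = 2.01e-05) and 0.87 ± 0.077 (adjusted p = 6.6e-11). After 2 days it had 36.4 to 42.3 FPKM in vehicle and 39.6 to 43.4 with VIC-1911 (0.08 ± 0.070, adjusted p = 0.529).

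NFKBIE (chr6:44258166-44265551, minus strand), the IkB-epsilon gene, ranged from 1.72 to 2.99 FPKM over all 18 libraries and its groups overlapped in every comparison. Its 7-day changes were 0.35 ± 0.17 after VIC-1911 (adjusted p = 0.0756), 0.37 ± 0.17 after olaparib (adjusted p = 0.0634) and 0.42 ± 0.16 after both (adjusted p = 0.0298). Only the last passed, and the combination did not differ past the threshold from olaparib (adjusted p = 0.878) or VIC-1911 (adjusted p = 0.779). That call was lost without vehicle replicate 1 (adjusted p = 0.158), vehicle replicate 2 (adjusted p = 0.123), combination replicate 2 (adjusted p = 0.0503) or combination replicate 3 (adjusted p = 0.113), and with DESeq2 (adjusted p = 0.0679) and limma (adjusted p = 0.144 with a pseudocount of 0.1). Without vehicle replicate 3 the calls after VIC-1911 (adjusted p = 0.0283) and olaparib (adjusted p = 0.0244) were gained, as were those without VIC-1911 replicate 1 (adjusted p = 0.0213) and olaparib replicate 1 (adjusted p = 0.0222), and with no count filter (adjusted p = 0.0352 and 0.0263), and that after olaparib with no scaling beyond library size (adjusted p = 0.0383). At 2 days the change was 0.20 ± 0.19 (adjusted p = 0.542).

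LIF (chr22:30240453-30246759, minus strand), a secreted cytokine of the IL-6 family, had the smallest adjusted p of the 10 genes in each of the 3 treatments at 7 days. Its FPKM was 0.922, 0.844 and 0.828 in vehicle, 2.43, 2.24 and 2.11 after VIC-1911, 4.12, 4.44 and 4.45 after olaparib, and 5.38, 5.36 and 5.18 after both. The 4 groups did not overlap. The changes were 1.32 ± 0.12 (adjusted p = 2.02e-10), 2.31 ± 0.11 (adjusted p = 4.42e-17) and 2.6 ± 0.10 (adjusted p = 7e-19), or 2.49-fold, 4.96-fold and 6.07-fold. After 2 days LIF had 0.810, 0.948 and 0.674 FPKM in vehicle and 1.54, 1.39 and 1.55 with VIC-1911, with 14, 20 and 16 counts behind the vehicle values. That rise of 0.86 ± 0.22 passed (adjusted p = 0.0068), but not with DESeq2 (0.86, adjusted p = 0.071) or without vehicle replicate 3 (0.76, adjusted p = 0.0529).

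IL32 (chr16:3065403-3069530), an inflammatory cytokine gene, was near the limit of detection in vehicle at 7 days, with 0, 2 and 2 counts. Its 7-day FPKM was 0, 0.0594 and 0.153 in vehicle, 0.480, 0.294 and 0.203 after VIC-1911, 0.515, 0.335 and 0.472 after olaparib, and 0.468, 0.802 and 1.15 after both. A count of 0 in vehicle replicate 1 allows up to 3 counts. Per total count, the 22, 34 and 68 counts of the treated groups against 4 in vehicle made ratios of 5.63 (95% interval 1.91 to 22.5), 8.04 (2.87 to 31.2) and 15.3 (5.71 to 57.8). All treated libraries were above vehicle. The fitted changes, which rest on the 4 vehicle counts, were 2.37 ± 0.76 (adjusted p = 0.0099), 2.86 ± 0.70 (adjusted p = 0.000987) and 3.78 ± 0.60 (adjusted p = 4.12e-06), and the first of them did not pass without vehicle replicate 1 (adjusted p = 0.0674). After 2 days IL32 had 0.578, 1.12 and 0.802 FPKM in vehicle and 1.30, 2.00 and 1.77 with VIC-1911, with no overlap. The 2-day rise was 1.23 ± 0.35 (adjusted p = 0.0148), from 18 to 66 counts, and was lost without vehicle replicate 3 (1.04, adjusted p = 0.0911). DESeq2 gave it no adjusted p at 2 days. 

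TNFAIP3 (chr6:137866349-137883312) encodes A20, an enzyme that edits ubiquitin chains and shuts the canonical route off. Its 7-day FPKM was 0.0993, 0.177 and 0 in vehicle, 0.200, 0.144 and 0.148 after VIC-1911, 0.193, 0.238 and 0.246 after olaparib, and 0.403, 0.237 and 0.286 after both. VIC-1911 overlapped vehicle, and the other 2 groups did not. The change after both drugs was 1.45 ± 0.38 (adjusted p = 0.00159) and passed under every alternative. The change after olaparib was 1.01 ± 0.40 (adjusted p = 0.0363) and was lost with DESeq2 (adjusted p = 0.0526) and without vehicle replicate 1 (adjusted p = 0.113), vehicle replicate 3 (adjusted p = 0.107), olaparib replicate 2 (adjusted p = 0.0774) or olaparib replicate 3 (adjusted p = 0.109). After VIC-1911 the change was 0.44 ± 0.44 at 7 days (adjusted p = 0.425) and 0.06 ± 0.41 at 2 days (adjusted p = 0.953), on 28 and 21 vehicle counts.

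**Figure D3:**
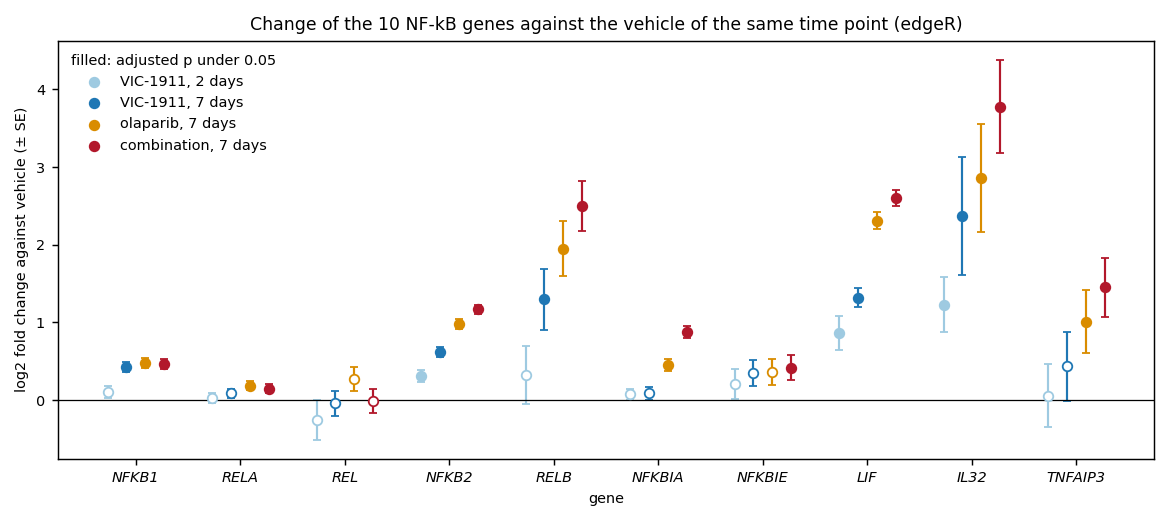
Log2 fold change with its SE (y axis) of each gene (x axis) against the vehicle of the same time point, for the 4 comparisons; filled points passed an adjusted p under 0.05 and open points did not. RELB, LIF and IL32 have the largest fitted changes, up to 2.50, 2.6 and 3.78 after both drugs, RELA reaches at most 0.19, and REL has no filled point.

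The time of treatment was compared for VIC-1911 as the 7-day change less the 2-day change, each taken within its own count table. It was larger at 7 days for NFKB1 (0.31 ± 0.10, adjusted p = 0.0182) and NFKB2 (0.29 ± 0.10, adjusted p = 0.0307), and the other 8 genes did not pass. Of all 13828 genes tested, 14.6% were higher in this sense and 28.7% differed in either direction. The NFKB2 call was lost with DESeq2 (adjusted p = 0.0623) and without vehicle replicate 2 of 2 days (adjusted p = 0.108), vehicle replicate 3 of 2 days (adjusted p = 0.0897), VIC-1911 replicate 3 of 2 days (adjusted p = 0.0872), vehicle replicate 2 of 7 days (adjusted p = 0.056) or VIC-1911 replicate 1 of 7 days (adjusted p = 0.0532). NFKB1 was the gene whose call remained in each of these. For RELB, LIF and IL32 the intervals of the difference included 0 and reached 2.08 (from -0.18), 1.00 (from -0.12) and 2.69 (from -0.54), so that no difference in time was detectable for them at this depth.

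To see what VIC-1911 added to olaparib, the combination was compared with olaparib alone. NFKB2, NFKBIA and LIF were higher and none of the 10 was lower, against 4.55% of all genes tested called higher and 11.5% in either direction. Of these 3, NFKBIA had the largest fitted change, 0.42 ± 0.074 (adjusted p = 0.000286) from 34.9 to 45.2 FPKM in the means. LIF rose by 0.29 ± 0.079 (adjusted p = 0.0143) and NFKB2 by 0.20 ± 0.056 (adjusted p = 0.0204), both with no overlap between the libraries. The call of NFKB2 was lost with limma on log2(FPKM + 0.1) (adjusted p = 0.101) and without olaparib replicate 3 (adjusted p = 0.179), combination replicate 1 (adjusted p = 0.0525) or combination replicate 3 (adjusted p = 0.0602), and that of LIF with limma on log2(FPKM + 0.1) (adjusted p = 0.0633) and without olaparib replicate 2 (adjusted p = 0.0558). RELB and IL32 had intervals of 0.05 to 1.05 and 0.14 to 1.70 and did not pass after adjustment over all genes (adjusted p = 0.154 and 0.124).

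What olaparib added to VIC-1911 was read from the combination against VIC-1911 alone, in which 6 of the 10 genes were higher and none lower, where 20.7% of all genes tested were higher and 42.9% differed. The 6 include RELB, IL32 and TNFAIP3, which had passed the count filter through treated libraries, and no VIC-1911 library of IL32 reached 10 counts. This number is therefore no measure of an excess over all genes. LIF rose by 1.28 ± 0.087 (adjusted p = 8.91e-13), NFKBIA by 0.79 ± 0.076 (adjusted p = 1.19e-09), NFKB2 by 0.56 ± 0.057 (adjusted p = 3.53e-09) and RELB by 1.2 ± 0.27 (adjusted p = 0.000584). IL32 (1.40 ± 0.42, adjusted p = 0.00739) and TNFAIP3 (1.01 ± 0.35, adjusted p = 0.0213) also passed, IL32 with overlapping FPKM. The IL32 call was lost without VIC-1911 replicate 3 (adjusted p = 0.0643) or combination replicate 3 (adjusted p = 0.0885). The TNFAIP3 call was lost with DESeq2 (adjusted p = 0.0552) and limma on log2(FPKM + 0.1) (adjusted p = 0.126) and without VIC-1911 replicate 2 (adjusted p = 0.0664), VIC-1911 replicate 3 (adjusted p = 0.0804) or combination replicate 1 (adjusted p = 0.131). NFKB1, RELA and REL, the canonical subunits, and NFKBIE were not called in either of the 2 comparisons with a single drug.

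The interaction term asks whether the combination differs from the sum of the single-drug changes on the log2 scale. It was below 0 for LIF (-1.03 ± 0.15, adjusted p = 1.14e-06), NFKB1 (-0.45 ± 0.090, adjusted p = 0.000142) and NFKB2 (-0.42 ± 0.085, adjusted p = 0.000169), which rose less with both drugs than the sum of the single changes. NFKBIA was the only gene of the 10 with a term above 0 that passed (0.33 ± 0.11, adjusted p = 0.0155), and that call was lost with limma on log2(FPKM + 0.1) (adjusted p = 0.126) and without VIC-1911 replicate 2 (adjusted p = 0.0753) or olaparib replicate 2 (adjusted p = 0.0547). Of all genes tested, 22.9% were called below 0 and 21% above 0, 44% in all. For NFKB1 the levels of the treated groups overlapped, 9.19 ± 0.266 FPKM after VIC-1911, 9.28 ± 0.536 after olaparib and 9.14 ± 0.279 after both (SD, n = 3).

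**Figure D4:**
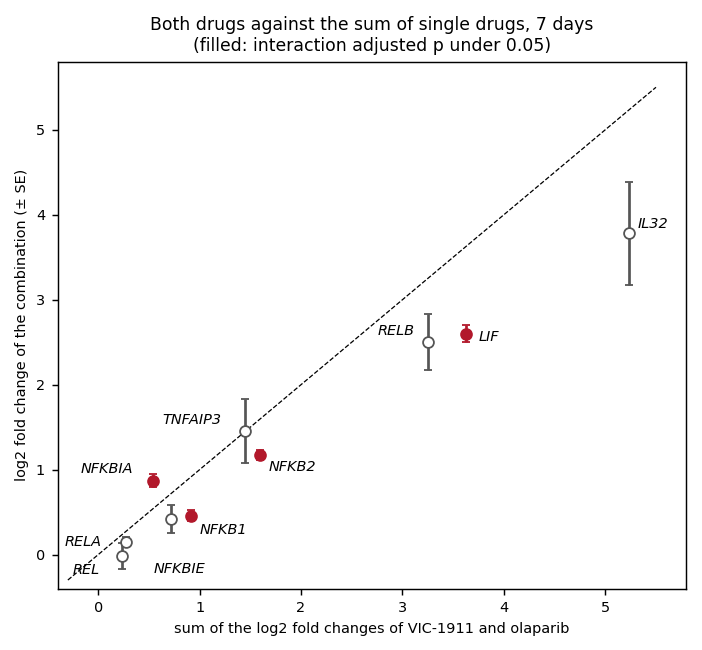
Log2 fold change of the combination with its SE (y axis) against the sum of the log2 fold changes of VIC-1911 and olaparib (x axis) at 7 days for the 10 genes; the dashed line is equality, and filled points have an interaction with an adjusted p under 0.05. LIF, NFKB2 and NFKB1 lie below the line and NFKBIA above it.

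Genes with a level pattern most like that of a member were sought over the 12 libraries of 7 days by Pearson's r of depth-scaled log2 counts, among 12100 genes. The libraries share 4 groups and a depth range, so these values are a description. LIF was most like CDKN1A (r = 0.997), SPATA18 (r = 0.996) and RALGDS (r = 0.995), and NFKB2 most like EAF2 (r = 0.992), PGM2 (r = 0.989) and TSPYL1 (r = 0.989). RELB was most like GTF2H5 (r = 0.981), ALDOC (r = 0.964) and B2M (r = 0.962). The values were lower for IL32, from 0.926 to 0.94 (HIST4H4, XRN2 and TEAD1), and for TNFAIP3, from 0.898 to 0.901 (ZNF670, TTC39A-AS1 and COG8). Among the members themselves, r was 0.987 between NFKB2 and LIF, 0.93 between RELB and LIF, and 0.905 between NFKB2 and RELB.

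The wider pathway did not move one way. Of 96 further genes in 7 lists (receptors, adaptors and ubiquitin ligases, the IKK complex and kinases, other IkB proteins, negative regulators, ligands and cytokines, and other targets), 64 could be tested at 7 days. After VIC-1911 16 were higher and 19 lower, after olaparib 20 higher and 14 lower, and after both 19 higher and 14 lower, or 25%, 31.2% and 29.7% higher. These are close to the shares of all genes tested given above, and their medians were -0.05, -0.04 and 0.04. At 2 days 8 of 60 (13.3%) were higher and 4 (6.67%) lower, where 7.5% of all genes tested were higher and 7.19% lower.

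Of the receptor list, 10 of 14 genes were tested at 7 days. By edgeR none was higher after olaparib or both drugs, at an unadjusted p under 0.05 either, and 7 and 6 were lower; the median after both was -0.59, against 0.0046 over all genes tested. After VIC-1911 1 was higher, TNFRSF12A, and 4 were lower. Of all genes tested, 25.9%, 28% and 25.7% were lower after olaparib, both drugs and VIC-1911, and 28.1%, 28.6% and 26.7% were higher. Some receptors were too low to be tested. Of these, TLR3 (0.0154 FPKM in vehicle, 0.163 after both) and TNFRSF1B (0.0365 and 0.0725) lay above vehicle after olaparib and after both. CD40 and TLR4 overlapped vehicle. TLR5, called lower after olaparib and both, was also low, with 0.237 FPKM in vehicle. IL1R1 (chr2:102070390-102179874), the signalling receptor of IL-1, had 7.86 ± 0.691 FPKM in vehicle, 6.27 ± 0.358 after VIC-1911, 4.97 ± 0.203 after olaparib and 3.58 ± 0.293 after both (SD, n = 3). Its change after both was -1.16 ± 0.074 (adjusted p = 4.58e-14), and the libraries of the 2 groups did not overlap. Both chains of the LIF receptor were chosen for mention after their values were seen. LIFR was not called in any 7-day comparison with vehicle (0.09 ± 0.071 after both, adjusted p = 0.286). At 2 days it was higher with VIC-1911 (0.26 ± 0.083, adjusted p = 0.0299). IL6ST was lower at 7 days after VIC-1911 (adjusted p = 6.4e-06), olaparib (adjusted p = 0.000171) and both drugs (-0.37 ± 0.065, adjusted p = 1.43e-05), and was not called at 2 days (adjusted p = 0.0867).

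Of the IKK complex and kinases, all 11 were tested, with 4 higher and 3 lower after VIC-1911, and 3 higher and 2 lower after olaparib and after both. The shares called higher were 36.4%, 27.3% and 27.3%, against 26.7%, 28.1% and 28.6% of all genes tested. Those called lower were 27.3%, 18.2% and 18.2%, against 25.7%, 25.9% and 28%. MAP3K14 (chr17:45263119-45317020, minus strand), which encodes NIK, the kinase at the head of the non-canonical route, had 2.71 ± 0.176 FPKM in vehicle, 5.15 ± 0.211 after VIC-1911, 5.74 ± 0.0354 after olaparib and 6.56 ± 0.501 after both at 7 days. It rose by 0.87 ± 0.084 (adjusted p = 5.99e-10), 1.06 ± 0.083 (adjusted p = 6.01e-12) and 1.26 ± 0.080 (adjusted p = 4.3e-14), and at 2 days by 0.54 ± 0.11 (adjusted p = 0.000605) from 3.52 to 5.05 FPKM. Its exons share 15.1% of their bases with the antisense gene MAP3K14-AS1, so its counts are uncertain. Further genes of this list were chosen for mention after their values were seen. After both drugs the canonical kinase gene IKBKB (-0.24 ± 0.061, adjusted p = 0.00148) and TAB3 (-0.31 ± 0.079, adjusted p = 0.00158) were lower. TBK1 (0.29 ± 0.063, adjusted p = 0.000279) and TAB1 (0.15 ± 0.061, adjusted p = 0.0401) were higher. IKBKG was not called after both (adjusted p = 0.0751) but was lower after VIC-1911 (-0.31 ± 0.081, adjusted p = 0.00169) and olaparib (-0.24 ± 0.081, adjusted p = 0.0139). CHUK, the IKK-alpha gene, was not called after both (0.002 ± 0.079, adjusted p = 0.986) but was higher after VIC-1911 (0.19 ± 0.079, adjusted p = 0.0432).

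Of 15 tested adaptors and ubiquitin ligases, 5, 6 and 5 were higher and 4, 2 and 3 lower after VIC-1911, olaparib and both. The higher shares were 33.3%, 40% and 33.3%, against 26.7%, 28.1% and 28.6% of all genes tested, and the lower ones 26.7%, 13.3% and 20%, against 25.7%, 25.9% and 28%. RBCK1 and MALT1 met the rule for naming. RBCK1, a part of the linear ubiquitin ligase complex that supports canonical signalling, was 48.7 ± 1.87 FPKM in vehicle at 7 days and 24.8 ± 2.36, 24.1 ± 1.42 and 25.8 ± 0.776 FPKM after VIC-1911, olaparib and both. The fall was -1.01 ± 0.058 (adjusted p = 6.07e-15), -1.02 ± 0.059 (adjusted p = 5.26e-15) and -0.92 ± 0.057 (adjusted p = 2.44e-14). RNF31 and SHARPIN of the same list were chosen for mention after their values were seen. RNF31 was not called in any of the 3 comparisons (0.05 ± 0.064 after both, adjusted p = 0.513). SHARPIN was lower after VIC-1911 (-0.18 ± 0.062, adjusted p = 0.0141) and not called after olaparib (adjusted p = 0.121) or both (adjusted p = 0.643). MALT1, a scaffold and protease of antigen receptor signalling to IKK, rose from 20.4 ± 1.99 to 42.1 ± 1.55 FPKM after both drugs (1.05 ± 0.062, adjusted p = 6.74e-15).

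Of 30 other target genes 14 were tested at 7 days, with 4 higher and 4 lower after VIC-1911, 8 and 2 after olaparib, and 7 and 1 (CSF1) after both. The shares called higher were 28.6%, 57.1% and 50%, against 26.7%, 28.1% and 28.6% of all genes tested, and those called lower 28.6%, 14.3% and 7.14%, against 25.7%, 25.9% and 28%. JUNB, an AP-1 subunit, rose from 14.4 ± 1.34 to 37.3 ± 2.49 FPKM (1.35 ± 0.063, adjusted p = 3.04e-17), IRF1, an interferon-responsive transcription factor, from 0.204 ± 0.0516 to 1.14 ± 0.142 (2.38 ± 0.25, adjusted p = 3.12e-09), and KLF6, a zinc finger transcription factor, from 0.959 ± 0.0672 to 1.99 ± 0.145 (1.02 ± 0.13, adjusted p = 7.82e-08). Exons of IRF1 share 22.9% of their bases with IRF1-AS1 and those of JUNB 14.2% with HOOK2 on the opposite strand, so both are uncertain. Of the 5 other IkB genes 0, 1 and 2 were higher (after both, NFKBID and BCL3) and 1, 1 and 0 lower after VIC-1911, olaparib and both. Of 8 negative regulators 2 were higher in each and 3, 0 and 2 lower. The higher shares were 0%, 20% and 40% for the former and 25% in each for the latter, against 26.7%, 28.1% and 28.6% of all genes tested. The lower shares were 20%, 20% and 0%, and 37.5%, 0% and 25%, against 25.7%, 25.9% and 28%. Of the 12 ligands and cytokines, among them TNF, LTB, IL1B and IL6, none could be tested at 2 days and 1, CLCF1, at 7 days, where it was not called against vehicle, since their counts did not reach the minimum.

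**Figure D5:**
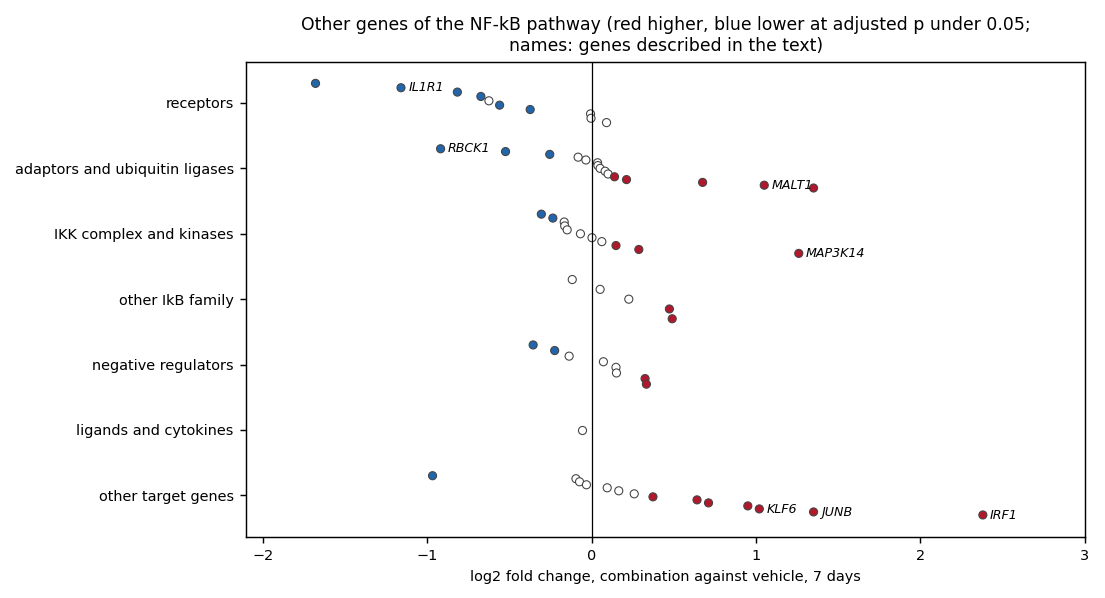
Log2 fold change after both drugs against vehicle at 7 days (x axis) of the 64 tested genes of the pathway lists (rows); red points are higher and blue points lower at an adjusted p under 0.05, and white points are neither. The receptor row has 6 blue points and no red one, while IRF1, JUNB and KLF6 among the targets and MAP3K14 among the kinases lie to the right.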

How the data were processed

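Per the labels and the study's methods, the authors trimmed the reads, aligned them to hg38 with STAR (version 2.6.0 by the labels, whereas the methods name another version) and deposited raw counts per gene and FPKM values, in 1 table of each kind for each time point. All 36 columns of measurements were used, and each library was grouped by its own label. Strand setting and the handling of shared reads are not given in the sources used here, and for genes that overlap another the counts are uncertain. At 7 days the FPKM followed the counts (their ratio to the depth-scaled counts varied by at most 1.07 times across libraries for a gene), whereas at 2 days it varied by up to 1.56 times, so these FPKM are not the counts rescaled. At 2 days 28 names had turned into dates, and at 7 days 32 genes had no FPKM.

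The quasi-likelihood test of edgeR 4.0.16 in R 4.3.3 was run with TMM normalization, in 1 fit per time point (12241 and 14409 genes that reached 10 counts in 3 or more libraries) and 1 fit of both tables for the time difference (13828 genes), with Benjamini-Hochberg adjustment over all genes tested. Alternatives were upper-quartile, RLE and no scaling, no count filter, DESeq2 1.42.0, limma 3.58.1 on log2(FPKM + 0.1) and log2(FPKM + 1), the replicate number as a block, the compared groups alone, and each library left out. TMM factors were 0.965 to 1.04. In simulated data with 200 genes changed 2-fold, 181 were recovered at 2 days and 181 for VIC-1911 at 7 days, 160 for the interaction and 151 for the time difference.

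The 10 genes, the pathway and marker lists and the tests were chosen with earlier results of these data known. Further pathway genes were named where they were among the 6 smallest adjusted p in a comparison with vehicle, past the fold limit, with at least 1 FPKM in a group and no overlap between libraries; others are said to be chosen after their values were seen. Count intervals are exact at 95% and cover counting error only. Promoter stretches and gene coordinates are those of RefSeq and GRCh38.p14. Whole-pathway enrichment was not tested. Some listed marker genes are not reported here.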

Additional observations from a re-analysis of the deposited data

Results flagged for a closer look

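The effects of a drug in the presence and absence of the other, and of VIC-1911 at both times, were tested for a difference, and 6 values of the 10 genes passed. For the interaction of the drugs at 7 days these were -0.453 for NFKB1, -0.419 for NFKB2, 0.332 for NFKBIA and -1.03 for LIF on the log2 scale. VIC-1911 changed NFKB1 by 0.306 more at 7 days than at 2 days and NFKB2 by 0.286 more, also on the log2 scale. In all genes tested, 44% passed the interaction test and 28.7% the time test.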

How the results depend on the processing

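Among the other tools, scalings and filters, the number of the 10 genes called higher moved by more than 1.5 times in 5 cases. With DESeq2 1 was called after VIC-1911 at 2 days in place of 3 (LIF did not pass, and IL32 was given no adjusted p, as were REL, RELB and TNFAIP3), and 1 in the time difference in place of 2. With limma on log2(FPKM + 0.1) 1 was called higher in the combination against olaparib in place of 3, and the interaction above 0 was called for 0 genes in place of 1 with both pseudocounts (0.1 and 1). With 1 library left out the number called higher was 1 to 3 for VIC-1911 at 2 days, 4 to 6 for VIC-1911, 7 to 9 for olaparib and 7 to 8 for the combination at 7 days, 2 to 4 for the combination against olaparib, 4 to 6 against VIC-1911, 0 to 1 for interactions above 0 and 3 to 3 below 0, and 1 to 2 for the time difference. The moves by over 1.5 times came at 2 days without vehicle replicate 3 (1 in place of 3), for interactions above 0 without VIC-1911 or olaparib replicate 2 (0 in place of 1), and for the time difference (1 in place of 2) without 2-day vehicle replicates 2 or 3, 2-day VIC-1911 replicate 3, 7-day vehicle replicate 2 or 7-day VIC-1911 replicate 1. None was called lower in any of the comparisons with vehicle or of the combination with a single drug. The difference of the subunit groups from vehicle ranged from 0.26 to 0.42 at 2 days, and at 7 days from 0.79 to 1.15 after VIC-1911, 1.10 to 1.45 after olaparib and 1.59 to 1.95 after both. Directions turned only for changes that passed no test. REL after the combination turned to 0.0017 with upper-quartile and 0.0348 with no scaling, and ranged from -0.0766 to 0.0822 with 1 library left out. Leaving out 1 library also turned RELA at 2 days (-0.0207 to 0.0828), TNFAIP3 at 2 days (-0.2968 to 0.1661) and NFKBIA after VIC-1911 at 7 days (-0.031 to 0.1777). The cause was not tested.

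Deviations of libraries with the same replicate number were at most weakly correlated (r of -0.036 to 0.111 at 7 days, -0.0029 to 0.0438 at 2 days). Their median r was 0.017 at 7 days and 0.0015 at 2 days. For libraries of different numbers it was -0.0098 and -0.017. Values this small cannot decide whether the numbers pair the libraries. With the replicate number as a block, 3 of the 10 genes were called higher at 2 days and 5, 8 and 9 after VIC-1911, olaparib and both at 7 days, the same numbers as without it, and no call of a gene changed. Most libraries correlated best with a library of another number, but most libraries of the other groups carry another number, so this says nothing about pairing. IL32 could not be tested in a fit of the vehicle and VIC-1911 groups of 7 days alone, since it had too few counts there. Without olaparib replicate 1, the shallowest library of 7 days, an alternative added after seeing the data, 34 pathway genes in place of 34 were called after olaparib. Depth limits RELB, IL32, TNFAIP3 and REL most, with at most 122 counts in a library.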
